A study of Drosophila melanogaster with 4 samples.

Results

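The genes described here are 202 messages of the fly ovary with a high level of 5-methylcytosine (m5C) whose mRNA and ribosome footprints both stayed close to wild type in flies without NSUN2. They are 202 of the 2860 genes listed in the tables. A gene belongs to them if its highest listed m5C level is at least 0.6, if the higher of its NSUN2 KO and WT values is at least 5 in mRNA and also in footprints, and if the log2 difference of NSUN2 KO over WT, taken as log2((KO + 1)/(WT + 1)), is under 0.35 in size in mRNA and in footprints. A log2 difference of 0.35 is 1.27-fold. The rule sets aside 2 genes that met these values, FBgn0004655 and Mal-B2 (FBgn0032382), a maltase gene.

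Ovaries came from NSUN2 KO flies and from wild-type (WT) flies, both of the W1118 strain of Drosophila melanogaster. Each genotype had 1 library of ribosome-protected fragments and 1 library of poly(A) mRNA, which makes 4 libraries in all. What the NSUN2 allele is, how old the flies were and how many were pooled was not stated in the labels used here. With 1 library per genotype and assay, no difference between NSUN2 KO and WT has a replicate check and no p-value was computed. The members were chosen by their m5C level and by the values of all 4 libraries, so the small differences below are a description of the choice and not a finding.

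NSUN2 is a methyltransferase that adds a methyl group to cytosine in tRNAs and in some mRNAs. In mammals, m5C on mRNA is bound by proteins such as ALYREF, which takes part in nuclear export, and YBX1, which is linked to message stability. The fly ovary makes large stores of maternal mRNA that are kept, moved and translated at set times of egg development. Ribosome footprints are the stretches of mRNA that a ribosome shields from nuclease, and the footprint value divided by the mRNA value is a measure of how densely a message is loaded with ribosomes. The labels and tables do not say which m5C levels depend on NSUN2, where in each message the methylated site lies, or how many reads cover it.

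Symbols were at hand for 18 of the 2860 identifiers, and pps is the 1 member among those 18. All other members are given by their FlyBase identifier, with no statement on what they encode. The NSUN2 gene, the markers of ovary cell types and all gene lists but those holding Asx, MED1, Mau2, Vps15, AMPKalpha, Aldh, Mccc2 or Treh had no match, so the knockout and the tissue label were not checked, and group counts by pathway were not made.

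Values in the tables are scaled by gene length and library depth, and they could be turned back into whole reads. Over the listed genes the NSUN2 KO libraries held at least 2521130 footprint reads and 12152829 mRNA reads, against 1323478 and 4753778 in WT. A given value thus rests on 2.01 times as many reads in NSUN2 KO as in WT in footprints, and on 2.58 times as many in mRNA. For the 202 genes the median was 408.5 footprint reads in NSUN2 KO and 209 in WT, and 3157 mRNA reads in NSUN2 KO and 1234.5 in WT. Where a gene's reads and its length share a factor, the recovered reads are too low, so they are lower limits. Counting intervals below are exact 95% intervals of the log2 ratio of NSUN2 KO over WT without a pseudocount. They hold counting error alone, and because the reads carry no molecular identifiers, copies of 1 molecule can be among them.

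The first comparison asks how many highly methylated messages stay close to wild type among those that were measured. Of 505 listed genes with an m5C level of at least 0.6, 463 reached both floors, and 204 of the 463, or 44.1%, were within 0.35 in both assays. Over all 2644 genes above the floors this share was 43.5%. In mRNA alone 352 of the 463 genes were within 0.35, or 76.0%, beside 74.4% of all genes above the floors. In footprints alone 253 were within it, or 54.6%, beside 55.7%. Footprints thus took more genes out of the window than mRNA did, as they did over all genes above the floors. They also rest on fewer reads. Over all genes above the floors the median was 345.5 footprint reads in NSUN2 KO and 183.5 in WT, against 2704 and 1040 mRNA reads. How far counting error accounts for the difference between the assays was not tested. Of the 259 highly methylated genes outside the window, 148 were outside by footprints alone, 49 by mRNA alone and 62 by both. A difference of at least 2-fold, which the window bars for the members, was found in 33 of the 463 genes in footprints, or 7.13%, beside 5.79% of all genes above the floors, and in 7 of the 463 in mRNA, or 1.51%, beside 2.53%.

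**Figure D1:**
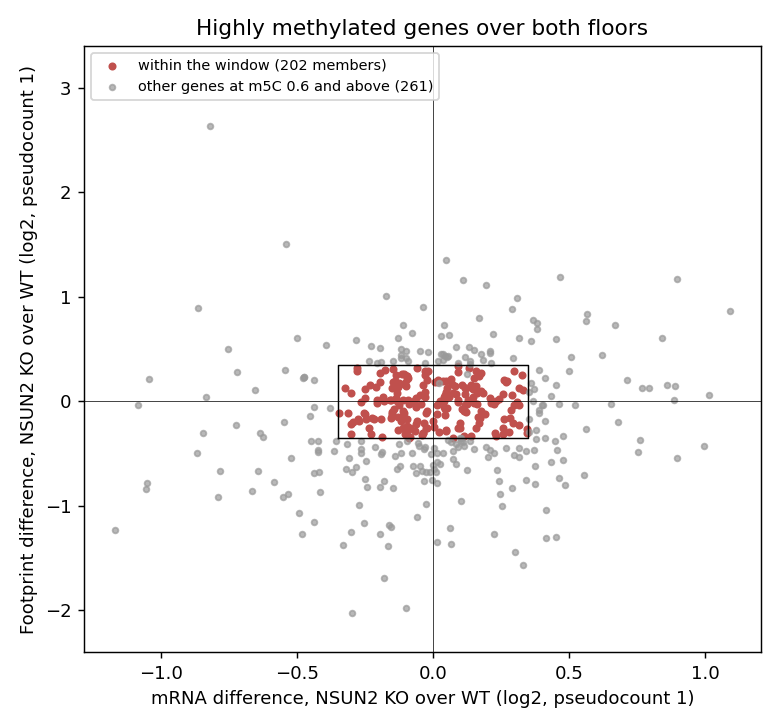
Log2 differences of NSUN2 KO over WT in mRNA (horizontal axis) and footprints (vertical axis) for the 463 genes with an m5C level of at least 0.6 that reached both floors; each point is 1 gene and the box marks differences of 0.35. The 202 members fill the box on all sides, and the other 261 genes, which include the 2 that were set aside, spread further along the footprint axis than along the mRNA axis.

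The share within the window was similar in all bands of m5C level. It was 44.1% at levels of 0.6 and above, against 45.4% of the 401 genes from 0.4 to 0.6, 43.3% of the 824 genes from 0.2 to 0.4 and 42.7% of the 956 genes from 0.1 to 0.2. The 2181 genes under 0.6 had a share of 43.4%, which is 0.64 percentage points below that of the highly methylated genes. Within the highly methylated genes the share also had no steady direction. It was 47.7% of 88 genes at 0.9 and above, 37.8% of 119 genes from 0.8 to 0.9, 40.4% of 109 genes from 0.7 to 0.8 and 49.7% of 147 genes from 0.6 to 0.7.

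**Figure D2:**
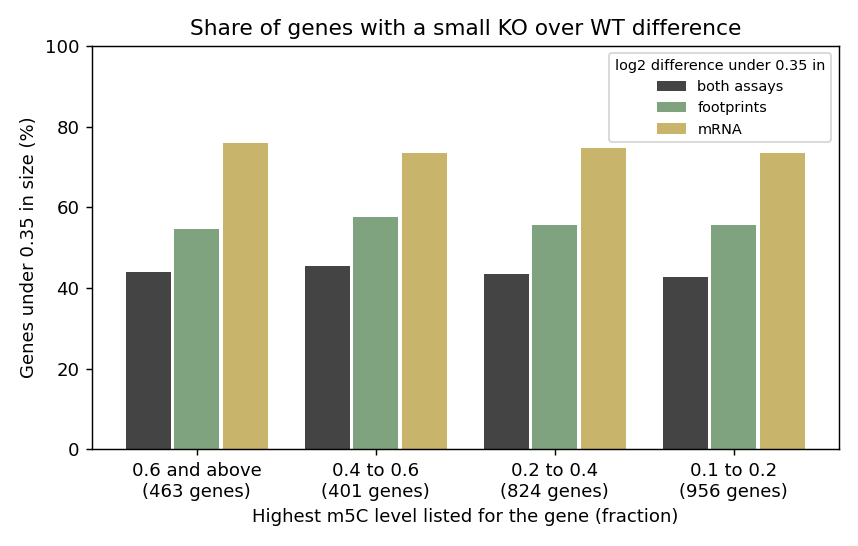
Percentage of genes above both floors whose log2 difference of NSUN2 KO over WT was under 0.35 in size, by band of highest m5C level; the bars of each band stand for both assays together, footprints and mRNA. The share in both assays lies between 42.7% and 45.4% in every band.

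The share was lower at few recovered reads, which are lower limits. At 500 or more WT footprint reads, 48 of 101 highly methylated genes were within the window, or 47.5%, beside 45.5% of 497 genes with lower m5C. From 200 to 500 reads the shares were 48.0% of 127 and 47.1% of 531 genes, and from 100 to 200 reads they were 42.2% of 90 and 50.1% of 431. Below 50 reads they were 37.5% of 72 highly methylated genes and 30.9% of 376 others. From 50 to 100 reads they were 41.1% of 73 and 40.2% of 346 genes. The highly methylated genes stood above the others in 4 of these 5 bands of reads and below them in 1. That 1 band, from 100 to 200 reads, had the widest gap. With at least 100 footprint reads in each genotype the shares were 46.5% of the highly methylated genes and 47.6% of the others. The bands thus show no steady excess.

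Among the 202 members the m5C level ran from 0.602 to 0.981 with a median of 0.762. By level, 41 genes were at 0.9 and above, 45 from 0.8 to 0.9, 44 from 0.7 to 0.8 and 72 from 0.6 to 0.7. The median log2 differences of these bands were -0.02, 0.00, -0.03 and -0.03 in mRNA and -0.01, -0.03, 0.01 and 0.00 in footprints. Across the 202 genes, which share the same libraries, the m5C level had a Spearman rho of 0.03 with the mRNA difference and -0.05 with the footprint difference.

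The member with the highest m5C level was FBgn0028380, at 0.981. Its mRNA value was 59.3 in NSUN2 KO and 68.5 in WT, and its footprint value was 19.03 in NSUN2 KO and 19.3 in WT. FBgn0026751, at 0.976, had mRNA values of 24.1 in NSUN2 KO and 26.5 in WT, with footprint values of 75.5 and 71.6. In both genes mRNA was lower in NSUN2 KO, with log2 differences of -0.20 and -0.13, and the counting interval of the footprint ratio held equality, from -0.47 to 0.44 and from -0.17 to 0.33. FBgn0037344, at 0.970, went the other way, with mRNA at 39.0 in NSUN2 KO and 34.1 in WT, and footprints at 91.7 in NSUN2 KO and 99.9 in WT. Its counting intervals excluded equality in both assays, from 0.14 to 0.25 in mRNA and from -0.20 to -0.05 in footprints, on 3757 footprint reads in NSUN2 KO and 2034 in WT. It lies within the window and still differs by more than counting error.

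The next in order was FBgn0038659, at 0.966, which had 25.3 in NSUN2 KO and 26.5 in WT in mRNA, and 49.8 and 51.3 in footprints, with both counting intervals holding equality. FBgn0030858, at 0.964, had 16.3 and 13.8 in mRNA, and its footprint values, 6.34 in NSUN2 KO and 6.33 in WT, were nearly equal. Those footprint values rest on 125 and 62 reads, so the interval reached from -0.45 to 0.47. FBgn0003744, at 0.962, was slightly lower in NSUN2 KO in both assays, with 65.5 against 70.1 in mRNA and 54.4 against 64.8 in footprints. FBgn0003048, at 0.960, had the lowest mRNA of these 12 members, 8.64 in NSUN2 KO and 7.58 in WT, with footprints of 12.4 and 14.5.

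The gene FBgn0037555, at 0.956, had the most mRNA of the 12, 175 in NSUN2 KO and 178 in WT, and lower footprint values, 46.9 and 39.2. FBgn0026189, also at 0.956, had the reverse profile, with mRNA of 12.1 in NSUN2 KO and 13.03 in WT and footprints of 77.6 and 65.4. These 2 genes show that messages with almost the same m5C level lay far apart in ribosome load, with a log2 value of footprints per mRNA of -1.87 in NSUN2 KO and -2.16 in WT for the first and 2.58 and 2.24 for the second. The last of the 12 were FBgn0034060 at 0.955, FBgn0032051 at 0.954 and FBgn0005386 at 0.953, with log2 mRNA differences of 0.09, 0.04 and 0.15 and log2 footprint differences of -0.01, 0.04 and 0.12. Of the 12 members, the footprint interval excluded equality in FBgn0037344, FBgn0003744, FBgn0003048, FBgn0037555 and FBgn0026189.

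**Figure D3:**
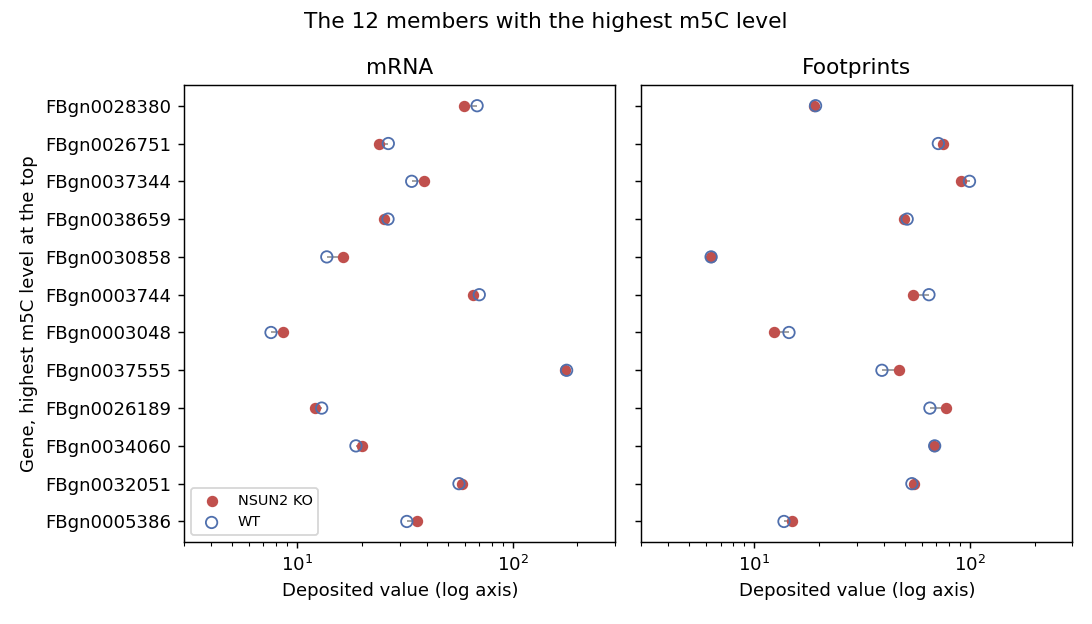
Deposited mRNA (left panel) and footprint (right panel) values of the 12 members with the highest m5C level, on a log axis; filled points are NSUN2 KO and open circles WT, 1 library each. The pairs of points nearly coincide in most rows, while the rows differ widely, from 7.58 to 178 in WT mRNA.

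The only member with a symbol was pps (FBgn0082831, on chromosome arm 3R), which encodes a partner protein of the splicing factor Snf and takes part in splicing of Sex-lethal, the gene that sets female identity in the fly. Its m5C level was 0.743. Its mRNA value was 20.8 in NSUN2 KO and 17.4 in WT, and its footprint value was 26.3 in NSUN2 KO and 25.98 in WT. On the log2 scale mRNA differed by 0.24, counting interval 0.17 to 0.35, and footprints by 0.02, counting interval -0.14 to 0.18. Its mRNA was thus higher in NSUN2 KO by more than counting error, while its footprints were not told apart from WT at 949 reads in NSUN2 KO and 465 in WT. Footprints per mRNA of pps were 0.33 in NSUN2 KO and 0.55 in WT on the log2 scale, a difference of -0.22.

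The small differences had no common direction. In mRNA 97 members were above WT and 105 below it, and in footprints 99 were above and 103 below. Both were above in 49 members and both below in 55, while 48 had higher mRNA with lower footprints and 50 the reverse. The median log2 difference was -0.02 in mRNA, with an SD over genes of 0.17, and -0.01 in footprints, with an SD of 0.19. The signs of these medians turn with the scaling, so they show no direction. Across the 202 genes the differences in the 2 assays had a Spearman rho of 0.01, beside 0.06 across the 947 genes with lower m5C within the same window. In 25 members both differences were under 0.1 and in 95 both were under 0.2, while in 34 the larger was at least 0.3.

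The members nearest to no difference were FBgn0261444, FBgn0061200, FBgn0032051, FBgn0261934, FBgn0031048 and FBgn0026375. FBgn0261444 had 17.9 in NSUN2 KO and 17.6 in WT in mRNA, and 21.3 and 21.4 in footprints. FBgn0061200 had 61.0 in NSUN2 KO and 60.3 in WT in mRNA, and 70.8 and 72.6 in footprints. In the 6 genes the larger of both log2 differences was between 0.03 and 0.04, and every counting interval held equality. Reads limit this closeness for FBgn0031048, whose 137 footprint reads in NSUN2 KO and 66 in WT leave an interval from -0.39 to 0.49. FBgn0061200, with 2437 and 1242 reads, has the tightest footprint interval of the 6, from -0.14 to 0.06.

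Lying within the window is not the same as being unchanged. In mRNA the counting interval excluded equality in 132 of the 202 members, or 65.3%, beside 70.4% of all genes above the floors. In footprints it did so in 56 members, or 27.7%, beside 53.9%. Among genes with lower m5C within the same window the shares were 58.8% in mRNA and 28.5% in footprints. In 54 members, or 26.7%, both intervals held equality, beside 15.5% of all genes above the floors and 31.6% of the 947 genes with lower m5C within the same window. Read the other way, the interval lay wholly within the window in 158 members in mRNA, beside 57% of all genes, and in 69 members in footprints, beside 18.1%. It lay within the window in both assays in 59 members, beside 11.8%. The rule used these contrasts, so the distances from the background follow from the choice. For the remaining 143 members at least 1 interval from the recovered reads reached past 0.35. Since recovered reads are lower limits, some intervals are too wide for counting error. On that account alone, the counts of intervals that hold equality or reach past the window are upper limits. Those that exclude equality or lie within the window are lower limits on the same account. Copies of 1 molecule among the reads would make intervals too narrow and move the counts the other way. The counts are therefore not firm limits in either direction.

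**Figure D4:**
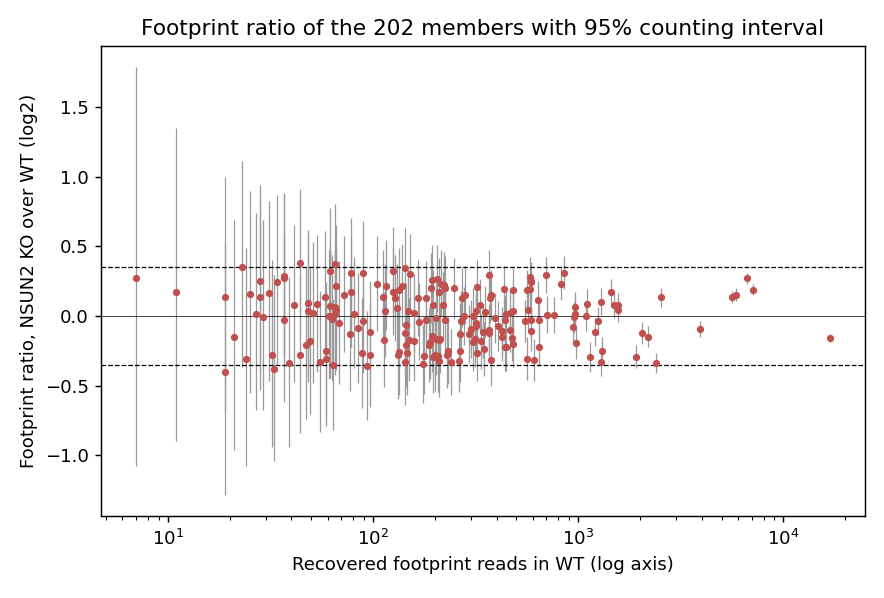
Log2 footprint ratio of NSUN2 KO over WT, without pseudocount, for the 202 members against the recovered WT footprint reads on a log axis; bars are exact 95% counting intervals and dashed lines mark 0.35. Intervals reach far beyond the dashed lines below about 100 reads and are narrow above 1000.

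Recovered footprint reads differed widely between members. FBgn0004649 had 30347 in NSUN2 KO and 16833 in WT, the most recovered for any member. The footprint value of FBgn0004649 was 857 in NSUN2 KO and 957 in WT, a log2 difference of -0.16, counting interval -0.19 to -0.13. At least 100 recovered reads in both footprint libraries were found for 145 of the 202 members, and fewer than 50 in WT for 27, some of which may have more.

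The members covered a wide range of abundance. In mRNA they ran from 4.99 to 2969 in NSUN2 KO and from 4.41 to 2447 in WT, with medians of 36.4 and 36.5. In footprints they ran from 4.42 to 5622 in NSUN2 KO and from 5.04 to 5119.9 in WT, with medians of 31.4 and 32.4. The highly methylated genes outside the window had lower medians, 31.5 in NSUN2 KO and 31.3 in WT for mRNA and 22.6 and 24.2 for footprints. Genes below 0.6 within the window had higher ones, 39.3 and 40.03 for mRNA and 37.6 and 37.9 for footprints. The rule admits genes by these same values, so the medians are a description.

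The most abundant member in mRNA was FBgn0261606, with 2969 in NSUN2 KO and 2447 in WT, and its footprints were 704 in NSUN2 KO and 862 in WT. Its mRNA was higher and its footprints lower in NSUN2 KO, with log2 differences of 0.28 and -0.29 and counting intervals from 0.25 to 0.30 in mRNA and from -0.40 to -0.18 in footprints. Footprints per mRNA of this gene therefore differed by -0.57 on the log2 scale although each assay stayed in the window. FBgn0029897 came next in mRNA with 1253 in NSUN2 KO and 1176 in WT. The others of the 8 most abundant were FBgn0014002, FBgn0005630, FBgn0028690, FBgn0036537, FBgn0004907 and FBgn0000182, with mRNA values from 192 to 307 in NSUN2 KO and from 170.3 to 278 in WT. FBgn0028690 was the closest of the 8 to wild type, with 255 in NSUN2 KO and 245 in WT in mRNA and 359.9 and 349 in footprints. FBgn0000182 was higher in NSUN2 KO in both assays. Its footprint value was 1002 in NSUN2 KO and 831 in WT, a log2 difference of 0.27 with an interval from 0.23 to 0.31.

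Ribosome load, which the rule did not fix beyond its floors, spread over a wide range among the members. The log2 value of footprints per mRNA, taken with 1 added to each value, ran from -3.12 to 4.84 in NSUN2 KO and from -3.48 to 4.56 in WT. The medians were -0.13 in NSUN2 KO and -0.07 in WT, close to those of all 2644 genes above the floors, -0.10 and -0.08. Among members with at least 100 footprint reads in each genotype the medians were 0.35 and 0.37, so their sign changes with the reads required. Such a minimum favours genes with more footprints, which by construction tends to raise footprints per mRNA. The highest 25% of all genes in footprints per mRNA held 51 members in NSUN2 KO and 45 in WT, and the lowest 25% held 43 and 44, where an even spread would put 50.5. Members thus occurred at both ends of the range of ribosome load. Across the 202 genes the m5C level had a Spearman rho of 0.07 with footprints per mRNA in NSUN2 KO and 0.08 in WT.

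**Figure D5:**
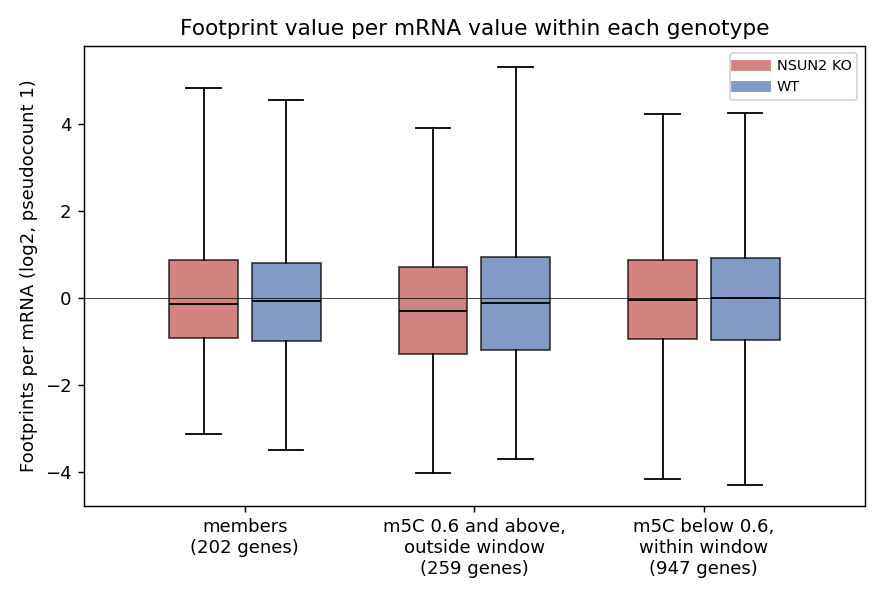
Footprint value per mRNA value on the log2 scale in NSUN2 KO and WT for the 202 members, the 259 highly methylated genes outside the window and the 947 genes with m5C below 0.6 within it; boxes span the middle of the genes with the median as a line and whiskers reach the extremes. The boxes of the 3 sets overlap widely, with member medians of -0.13 in NSUN2 KO and -0.07 in WT.

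The most densely loaded member was FBgn0004907, with an m5C level of 0.874. Its footprint value was 5622 in NSUN2 KO and 5119.9 in WT, and its mRNA value was 195 in NSUN2 KO and 216 in WT. The footprint value was thus 28.8 times the mRNA value in NSUN2 KO and 23.7 times in WT. The 2 values are scaled by different lengths, so this ratio ranks genes and is not an absolute excess. FBgn0015520 followed with footprint values of 193 in NSUN2 KO and 217 in WT at mRNA values of 18.8 and 23.0. FBgn0004649, FBgn0003261, FBgn0010622, FBgn0026427, FBgn0259745 and FBgn0039026 completed the upper 8, with log2 values from 2.20 to 2.93 in NSUN2 KO and from 2.38 to 2.94 in WT. FBgn0259745 had an m5C level of 0.947, with footprints of 376 in NSUN2 KO and 343 in WT.

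At the other end, FBgn0003401 had mRNA values of 65.1 in NSUN2 KO and 73.8 in WT with footprint values of only 7.26 and 5.70. Its log2 value of footprints per mRNA was -3.00 in NSUN2 KO and -3.48 in WT. That value rests on 59 footprint reads in NSUN2 KO and 23 in WT. FBgn0029897 shows the same low load at high abundance, with 1253 in mRNA of NSUN2 KO and 1176 of WT and log2 values of -2.51 and -2.76. FBgn0025381, FBgn0002567, FBgn0033692, FBgn0001978, FBgn0036117 and FBgn0039189 made up the rest of the lowest 8, with log2 values from -3.12 to -2.26 in NSUN2 KO and from -3.23 to -2.34 in WT. Their footprint values were between 7.04 and 16.7 in NSUN2 KO and between 6.74 and 16.5 in WT.

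The order of the members by ribosome load was nearly the same in both genotypes, with a Spearman rho of 0.98. It was 0.92 across all 2644 genes above the floors, where no window applies. Across the 947 genes with lower m5C within the same window it was 0.98. The close order is thus not particular to the members. The log2 difference in footprints per mRNA ran from -0.64 to 0.60 with a median of -0.01. It was under 0.35 in size in 170 of the 202 members, or 84.2%, beside 51.5% of all genes above the floors. The window limits this difference, and 82.8% of the 947 genes with lower m5C within the same window were under 0.35. In the other 32 members the difference was at least 0.35 in size. The lowest was FBgn0032479, with mRNA of 60.1 in NSUN2 KO and 47.1 in WT and footprints of 40.9 and 50.5. The highest was FBgn0035235, with mRNA of 7.68 in NSUN2 KO and 9.53 in WT and footprints of 6.54 and 5.04, which rest on 115 and 44 reads.

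Gene length, also outside the rule, came out of the read recovery as the length by which values were scaled. In footprints this length is in a unit the files do not give, read here as the codon. The members had a median of 694.5, the highly methylated genes outside the window 630, and genes below 0.6 within the window 627. Over all genes above the floors the median was 584. Recovered lengths are lower limits like the reads. Across the members, longer genes had less mRNA, with a Spearman rho of -0.46 in NSUN2 KO and -0.47 in WT between length and mRNA value. They had slightly more footprints per mRNA, with rho of 0.25 and 0.26. Across all genes above the floors the direction was the same. There rho was -0.38 in NSUN2 KO and -0.39 in WT for mRNA, and 0.15 and 0.20 for footprints per mRNA. The rho values use the length from footprints, which is the divisor of the footprint values. The mRNA values are divided by a separate recovered length, with a median of 3108.5 over the members.

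The edges of the rule cut through a continuous distribution. The 3 members just inside the m5C limit were FBgn0260990, FBgn0016031 and FBgn0000182, with levels from 0.602 to 0.605. The 3 genes just below it, FBgn0032340, FBgn0261397 and FBgn0037051, had levels from 0.597 to 0.599 and met all other values. In mRNA FBgn0028484, FBgn0032479 and FBgn0037491 were just inside with differences of 0.343 to 0.345 in size, and FBgn0037094, FBgn0037924 and FBgn0039016 just outside at 0.353 to 0.354. In footprints FBgn0263398, FBgn0000152 and FBgn0036967 were just inside at 0.342 to 0.347, and FBgn0033638, FBgn0002878 and FBgn0086362 just outside at 0.354 to 0.361. The floors apply to the higher of the NSUN2 KO and WT values. In mRNA this higher value was lowest inside for FBgn0261934, FBgn0033661 and FBgn0034049, at 5.34 to 6.004, and FBgn0260866, FBgn0263968 and FBgn0037525 fell below the floor at 2.78 to 3.50. In footprints the higher value was lowest inside for FBgn0034691, FBgn0035942 and FBgn0264326, at 5.46 to 6.14, and FBgn0031536, FBgn0086757 and FBgn0043796 fell below at 4.29 to 4.77.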

How the data were processed

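NSUN2 KO and WT ovaries each gave 1 footprint library and 1 poly(A) mRNA library. Per the labels' protocols, footprints came from micrococcal nuclease digestion and the monosome peak, with rRNA depletion. The nuclease prefers some bases, which can move values between genes. Tools listed, per the submitters' processing notes, are HTSeq, TopHat2 and cutadapt, with build dm3 and no versions. The deposited signal per gene is scaled to depth and length by the authors, under a scaling that the files do not name. The deposited m5C level is a fraction, per the file headers the highest of the gene, and its depth is unknown.

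Whole reads were recovered because within an assay a gene's NSUN2 KO over WT ratio is a ratio of whole numbers times 1 constant. At a relative tolerance of 1.5e-09, 2813 of 2857 footprint and 2474 of 2860 mRNA ratios were whole, against 57 and 24 with a shifted constant. The constant, which no label gives, was inferred from divisibility by small primes. It used the NSUN2 KO and WT terms of whole ratios, reduced to lowest terms, and not the reads themselves. These ratios came from an earlier pass with a smaller limit on the terms, and not from the full sets counted above. For 2, 3, 5 and 7 the shares in footprints were 32.4%, 23.9%, 16.5% and 15.1% in NSUN2 KO and 35.6%, 25.3%, 17.5% and 10.7% in WT, so they were unequal for 7. In mRNA they were 33.5%, 23.7%, 17.4% and 11.5% in NSUN2 KO and 31.5%, 26.5%, 17.9% and 12.0% in WT. All read totals and intervals rest on these inferred constants. Whole lengths then restored reads for 2859 and 2860 genes. The recovery was tested on simulated data. Intervals for ratios are Clopper-Pearson intervals. Python 3.11.15, numpy 2.4.6, pandas 2.3.3 and scipy 1.17.1 were used.

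Members and gene lists were chosen with earlier results of these data known. Named with values are the 12 members with the highest m5C level, the 8 with the highest and the 8 with the lowest WT footprints per mRNA, the 8 with the most mRNA, the 6 nearest to no difference, those next to each threshold, and the member with a symbol. Other genes named were picked after their values were seen. No sequences are shown because no sequence table was used here. Alternatives covered pseudocount, scaling, floors, window, m5C level and read minimum.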

Additional observations from a re-analysis of the deposited data

How the results depend on the processing

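No paired analysis was possible because every genotype and assay had a single library, so none could be left out either. The number of members was 202. It was 123 with a window of 0.25 and 86 with an m5C level of 0.8, which admit fewer genes by construction, and between 145 and 303 under the other 11 alternatives. The share of highly methylated genes within the window was 44.1%, became 26.8% with a window of 0.25 and 65.9% with 0.5, and stayed between 41.9% and 47.2% otherwise. It was above the share of less methylated genes in 9 of 13 alternatives and below it in 4, by -1.63 to 2.60 percentage points.

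The medians reported lay near 0, and several changed sign. The median log2 footprints per mRNA in NSUN2 KO became 0.11 with the window of 0.25 and 0.35 with at least 100 reads, a minimum chosen after seeing the data. In WT it became 0.013 with a pseudocount of 0.1, 0.20 with a floor of 10, 0.21 with the window of 0.25 and 0.37 with at least 100 reads. The read minimum and the footprint part of the floor of 10 favour genes with more footprints. By construction this tends to raise these medians. With median centring the median footprint difference became 0.015 and that of footprints per mRNA 0.022. With the trimmed mean these were 0.022 and 0.021, and the mRNA difference 0.00038. With the upper quartile the mRNA difference was 0.019. The cause was not tested, apart from the scalings, which shift every gene by 1 amount, at most 0.05 in size on the log2 scale, and kept at least 191 of the 202 members. Depth limits footprints more than mRNA.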

Other observations

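Beyond the window, the highly methylated genes leaned towards lower footprint values in NSUN2 KO. Of the 463 genes at m5C 0.6 and above, 138 were lower by at least 0.35 in footprints, or 29.8%, and 72 were higher, or 15.6%. Among the 2181 genes with lower m5C the shares leaned the same way, less strongly, at 24.7% and 19.3%. In mRNA 48 of the 463 genes were lower, or 10.4%, and 63 were higher, or 13.6%, beside 13.4% and 12.6% of the less methylated genes. With 1 library per genotype these shares have no replicate check, and they were not recomputed under the other scalings. The median log2 footprint difference of all genes above the floors was itself -0.04.

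The 2 genes that the rule sets aside resembled the members. FBgn0004655 had an m5C level of 0.978, with mRNA of 64.4 in NSUN2 KO and 63.3 in WT and footprints of 89.3 and 78.9. Mal-B2 had a level of 0.628, with mRNA of 11.3 in NSUN2 KO and 10.3 in WT and footprints of 27.8 and 23.0. Among the 18 genes with a symbol, pps and Mal-B2 were at 0.6 or above. CG8516 and Herc4 came closest below it, at 0.513 and 0.505. Both had lower footprint values in NSUN2 KO, 7.10 against 12.1 in WT for CG8516 and 13.3 against 26.8 in WT for Herc4. The counting interval of CG8516 ran from -1.18 to -0.35 on the log2 scale. That of Herc4 rests on 14 recovered footprint reads in each genotype. It ran from -2.19 to 0.17 and held equality, so its footprints were not told apart from WT.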
